A study of Mus musculus with 4 samples.

Results

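Bcl11b encodes a zinc finger transcription factor that commits thymocytes to the T cell lineage and is needed to keep mature T cells from taking on natural killer features. It lies beside a long stretch with few protein-coding genes, and that stretch holds a far enhancer of Bcl11b and a noncoding transcript, ThymoD, known from mouse thymocytes. Tcf1, encoded by Tcf7, takes part in switching Bcl11b on in early thymocytes. Accessible chromatin at the gene and across this stretch, called the desert below, is described here. The sites are the DNase-seq peaks with a midpoint on chromosome 12 between 108.3 and 109.28 Mb of the mouse build mm9, a window of 980 kb. There were 62 such peaks among the 84735 peaks of the 4 deposited lists, and they merged into 33 sites of 38986 in all, with an overlap of at least 1 bp counting as the same site. The gene was taken to span about 109.15 to 109.24 Mb. Its RefSeq promoter is on the minus strand, so its 5′ end is the upper one and the desert runs for 850 kb below its 3′ end. Positions are given to the base, but distances from the gene rest on these approximate ends.

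The cells were naive CD8+ T cells sorted from mouse spleen as GFP+ TCRbeta+ CD62Lhi CD44lo-med CD8+ and cultured with IL-15 and IL-7, which keep T cells alive without antigen, over 72 h. DNase I, which cuts open chromatin, was then applied to the lysed cells. DKO cells were Tcf1-/-Lef1-/-, from mice with both genes floxed, and 2 libraries were made from them. WT cells carried wild-type Tcf1 and Lef1, also with 2 libraries. Both genotypes carried the hCD2-Cre transgene, in which human CD2 elements drive Cre in lymphocytes, and the Rosa26-lsl-GFP reporter that marks cells with Cre activity, so the WT cells had Cre as well. Ages, sex and the number of animals are not given in the labels, and replicates may share a source, in which case p-values measure technical spread alone.

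The lists differed in length over the whole genome, with 34788 and 21353 peaks in DKO replicates 1 and 2 and 17521 and 11073 in WT replicates 1 and 2. Each listed peak has a fold enrichment, the authors' ratio of the pileup of fragments at the summit over the local background. A peak had to exceed a fold of 4 and a −log10 p of 5 to be in a list, so a missing peak does not mean closed chromatin. The number of fragments at each summit was solved from the fold and the p. The smallest listed summits had 8 fragments in both DKO lists, 10 in WT replicate 1 and 9 in WT replicate 2. The lowest background, which grows with depth, was 1.23 and 1.15 fragments in DKO replicates 1 and 2 and 1.5 and 1.47 in WT replicates 1 and 2. The DKO lists held 55 and 57 peaks on chromosome Y and the WT lists held 0 and 0, so genotype and sex cannot be told apart in any comparison here.

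The promoter sequence is shown because the strongest site of 3 libraries lay near the 5′ end of the gene and because the deleted factors bind a known motif. It is the RefSeq promoter of Bcl11b from build GRCm38.p6, chr12:108003365-108003664, minus strand, from 250 bases before to 50 bases after the transcription start. Capitals mark the letters CTTTGA, the core of the motif bound by Tcf1 and Lef1.
Bcl11b promoter: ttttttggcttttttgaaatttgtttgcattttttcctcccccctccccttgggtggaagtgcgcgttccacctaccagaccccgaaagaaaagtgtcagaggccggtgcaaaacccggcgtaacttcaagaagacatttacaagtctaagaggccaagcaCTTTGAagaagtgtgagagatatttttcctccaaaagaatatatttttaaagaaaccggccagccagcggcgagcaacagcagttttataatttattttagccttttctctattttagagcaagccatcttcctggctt
Searched on both strands, these letters occurred at 1 place in the promoter, and 16.0% of the 32851 RefSeq promoters of this length held them at least once. The RUNX core TGTGGT, the E-box CANNTG and the CTCF core motif did not occur in this window, against 16.8%, 72.3% and 0.0609% of all promoters. The promoter had 43.0% G or C, against a median of 52.7%. Its place in mm9 was not derived, so whether the site beside the gene's 5′ end covers it was not determined. No sequence of the desert sites is printed, since no genome of build mm9 was used here.

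Accessible sites lay in 3 separate groups, at the gene, at 100 to 300 kb below its 3′ end, and beyond 700 kb below it, with few sites between. The first 100 kb of the desert held 0 sites. Of the 33 sites, 10 were at the gene or in its 5′ flank and 23 in the desert. The widest empty stretches were 161 kb, from 108439461 to 108600426, 143 kb, from 108735414 to 108878058, and 135 kb, from 109022393 to 109157107, the last of them next to the gene's 3′ end. The far group held 11 sites, of which DKO replicates 1 and 2 had 11 and 5 and WT replicates 1 and 2 had 3 and 2. Despite the name, the desert was not poor in accessible sites: its union density was 27.1 sites per Mb, against 13.4 over chromosome 12 and 15.9 over the autosomes. By library, the desert held 27.1 and 11.8 peaks per Mb in DKO replicates 1 and 2 and 5.88 and 4.71 in WT replicates 1 and 2. The same lists held 14.2, 8.71, 7.17 and 4.53 peaks per Mb of autosome, in that order. In the lists the desert was thus denser than the autosomes in both DKO libraries, just above them in WT replicate 2 and below them in WT replicate 1. In the RefSeq annotation of GRCm38.p6, 26 genes lie between Vrk1, the first well-known gene below, and Bcl11b. They are 18 lncRNAs, 5 pseudogenes, 1 snoRNA and 2 predicted protein-coding genes, and Setd3 is the next gene above Bcl11b.

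**Figure D1:**
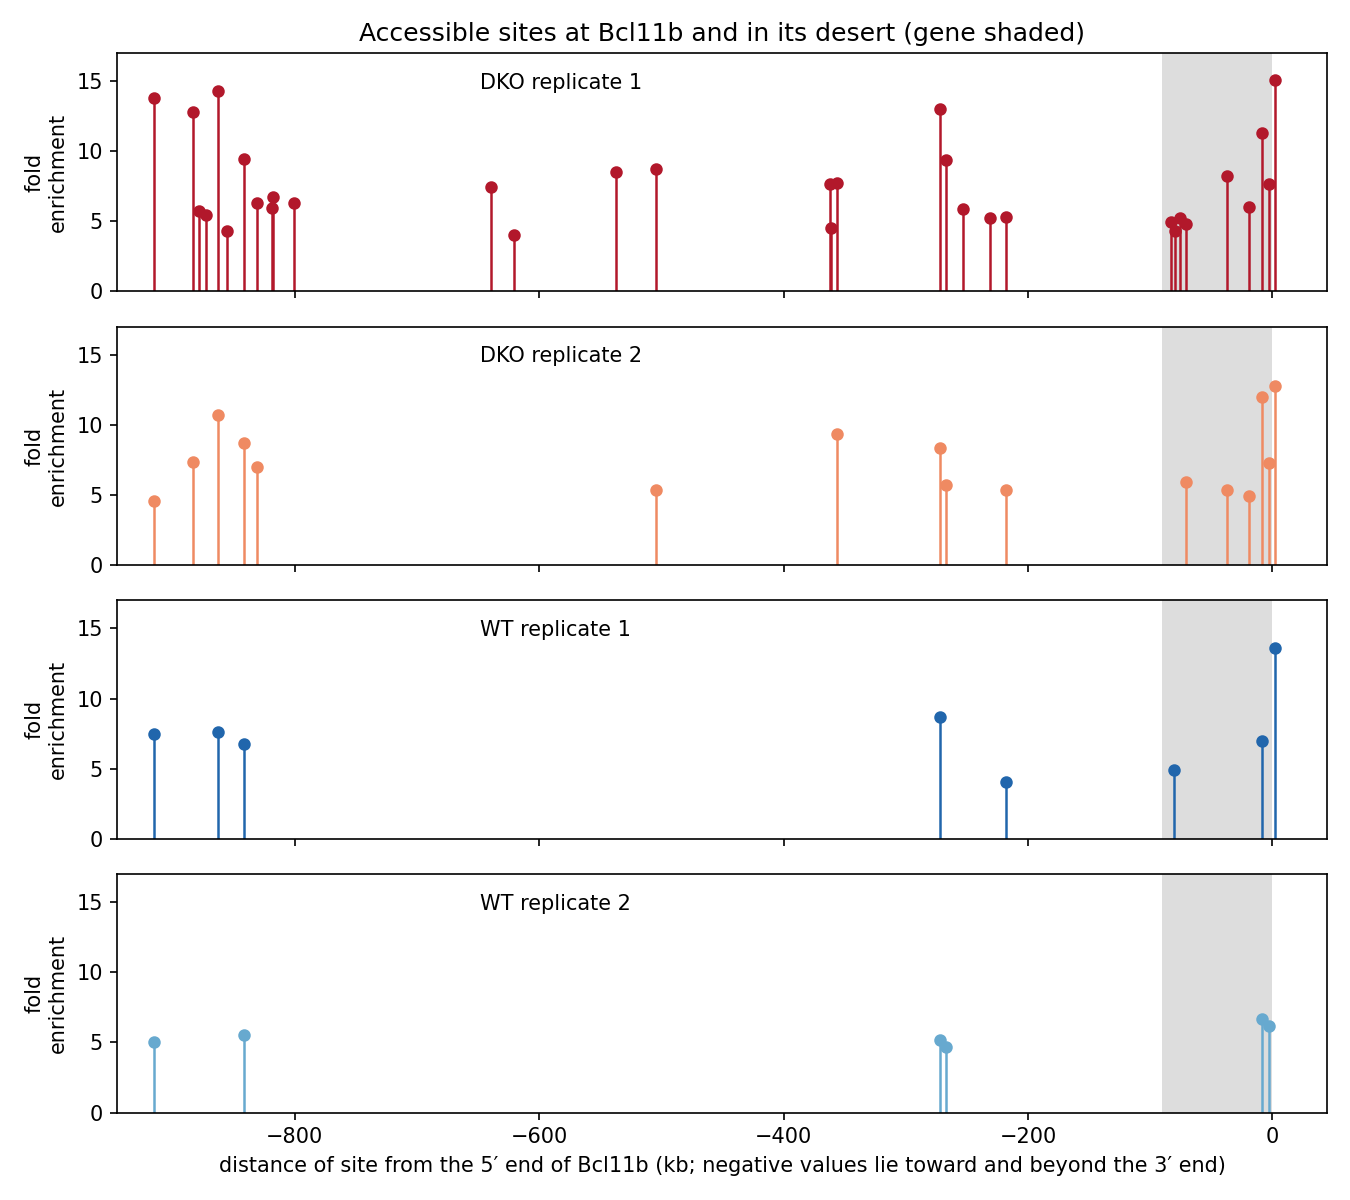
Fold enrichment of each listed peak (vertical axis) by its distance in kb from the 5′ end of Bcl11b (horizontal axis), with 1 panel per library and the gene shaded. Sites gathered at the gene, at 100 to 300 kb below its 3′ end and at the far end of the desert, and the panel of DKO replicate 1 holds 32 of the 62 peaks.

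**Figure D2:**
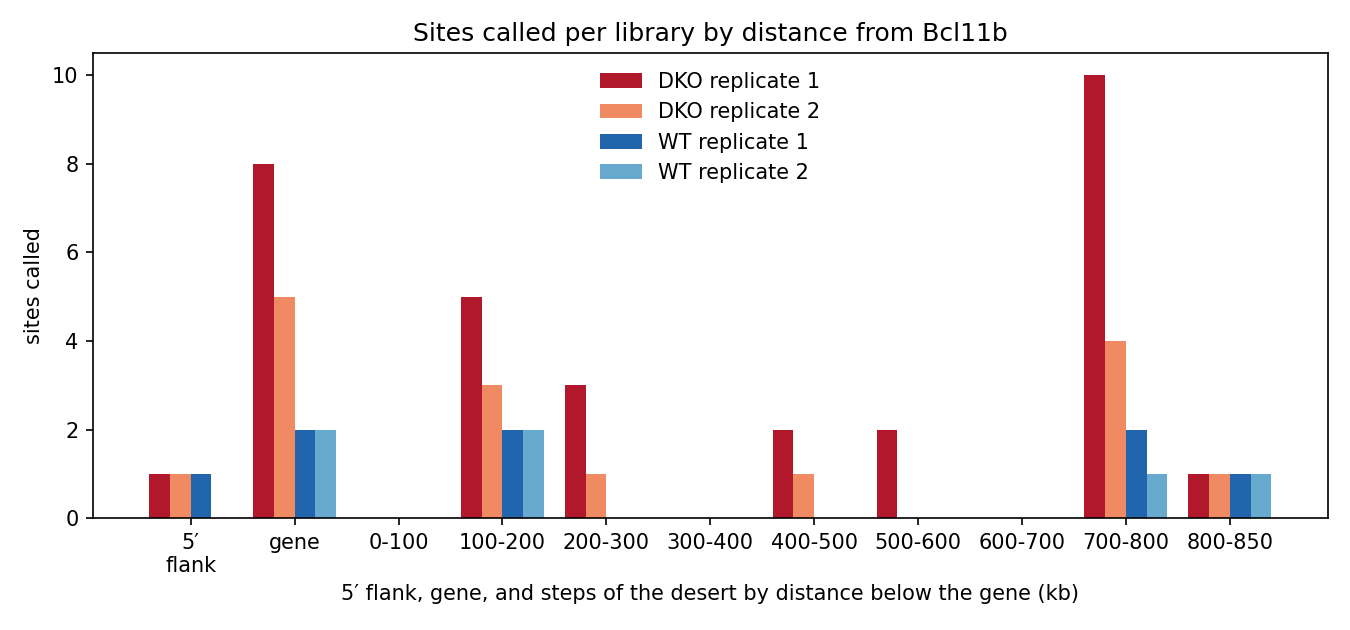
Number of sites called per library (bars) in the 5′ flank, the gene and steps of the desert by distance below the gene's 3′ end in kb. The step at 700 to 800 kb held 10 sites in DKO replicate 1, 4 in DKO replicate 2, 2 in WT replicate 1 and 1 in WT replicate 2.

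The strongest site lay 2.4 kb above the gene's 5′ end as placed here, at 109242240 to 109242519. That end is approximate, so whether the site lies outside the gene was not determined. Its fold was 15.1 and 12.8 in DKO replicates 1 and 2 and 13.6 in WT replicate 1, and WT replicate 2 had no peak there. The solved summits had 54 and 41 fragments in the DKO replicates (95% exact Poisson intervals 40.6 to 70.5 and 29.4 to 55.6) and 50 in WT replicate 1 (37.1 to 65.9). Intervals here cover counting error only, and fragments without molecular identifiers are not independent molecules. The summits of the 3 libraries lay within 12 bp of each other. In WT replicate 1 the site ranked 227th by fold, in the top 1.30% of its list, and in DKO replicates 1 and 2 in the top 11.4% and 8.37%. WT replicate 1 lay between the DKO replicates in fold and in fragments. It stood higher in its own list than they did in theirs, but the lists differ in length. Over the genome, 260 sites had a fold at least as high as 12.8 in the same 3 libraries, and 31 of them (11.9%) lacked a peak in WT replicate 2. Peaks in each list carry running numbers, and those of WT replicate 2 have no gap around this site, so no call there was taken out after calling.

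Inside the gene, near its 5′ end, lay a site called in all 4 lists, at 109231305 to 109231517, 8.6 kb below the 5′ end. Its fold was 11.3 and 12 in DKO replicates 1 and 2, against 7.01 and 6.68 in WT replicates 1 and 2. The summits had 44 and 38 fragments in DKO and 27 and 21 in WT. Both DKO values were above both WT values, on either measure, but the 95% intervals of DKO replicate 2 (26.9 to 52.2 fragments) and WT replicate 1 (17.8 to 39.3) overlapped. Folds ran higher in the DKO lists at large, with medians of 13.2 and 9.59 over the 8068 sites called in all 4 lists, against 7.51 and 6.61 in WT replicates 1 and 2. Fragments did too, with medians of 45 and 27 in DKO and 24 and 20 in WT, and they are not scaled between libraries. Ranked among those 8068 sites within each library, this site stood at percentile 31.9 and 75.4 in DKO and 40.1 and 51.8 in WT, so by rank the genotypes overlapped. Between it and the 5′ end, at 109237049 to 109237214, a site 2.9 kb below the 5′ end had folds of 7.64 and 7.29 in DKO replicates 1 and 2 and 6.15 in WT replicate 2, and WT replicate 1 had no peak there. Its summits had 27 and 22 fragments in DKO and 19 in WT replicate 2. Each of the 3 sites nearest the 5′ end was thus called in both DKO lists and in at least 1 WT list.

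The rest of the gene held sites of DKO lists and 1 site of a WT list. The 3 sites called in both DKO lists and no WT list lay 19.3, 36.9 and 71.0 kb below the 5′ end. The site at 109202899 to 109203223 had folds of 8.26 and 5.34 in DKO replicates 1 and 2, with 27 and 16 fragments. The site at 109220624 to 109220821 had folds of 6.04 and 4.95, with 15 and 11 fragments, and that at 109168936 to 109169047 had 4.81 and 5.95, with 17 and 19 fragments. The first of these was the strongest of the 3 in DKO replicate 1, and the last in DKO replicate 2. Another 3 sites, 75.6, 80.1 and 82.8 kb below the 5′ end, were called in DKO replicate 1 alone, with folds of 5.23, 4.28 and 4.93. The WT site, at 109159396 to 109159562, was in WT replicate 1 alone, with a fold of 4.89 and 18 fragments. It did not overlap the DKO replicate 1 site at 109159792 to 109160066, and merging peaks within 500 bp joined them. Both WT lists have 1 missing running number across the stretch with the 3 DKO sites, so at most 1 WT call per list was taken out there.

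The part of the next group at 100 to 200 kb below the 3′ end held 5 sites, with 1 called in all 4 lists. That site, at 108967493 to 108967789 and 182.4 kb below the 3′ end, had folds of 13.0 and 8.37 in DKO replicates 1 and 2 and 8.67 and 5.14 in WT replicates 1 and 2. Its summits had 39 and 23 fragments in DKO and 26 and 14 in WT, so the genotypes overlapped. Next to it toward the gene, at 177.1 kb, was the site at 108972801 to 108973022. Its folds were 9.40 and 5.69 in the DKO replicates and 4.71 in WT replicate 2, with 25, 13 and 13 fragments. WT replicate 1 had no peak there, but 1 of its running numbers is missing around the site, so a call may have been taken out. The site at 109022017 to 109022392, the desert site nearest the gene, was weak in each list that called it, with folds of 5.28 and 5.39 in DKO and 4.03 in WT replicate 1. WT replicate 2 had no peak there, and its 1 missing number noted for the gene falls in a stretch that also spans this site. The WT replicate 1 and DKO replicate 2 peaks there did not overlap each other and were joined by the DKO replicate 1 peak between them. The other 2 sites, at 141.1 and 162.8 kb, were called in DKO replicate 1 alone, with folds of 5.24 and 5.89.

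From 200 to 600 kb below the 3′ end, 7 sites were called, none of them in a WT list, and over the genome 50.3% of sites had no WT call. The edge at 200 kb divides the group at 100 to 300 kb. Of the 7 sites, 3 belong to that group, and its part at 100 to 200 kb had 2 calls in each WT list. WT replicate 1 has 1 missing running number between 108398720 and 108967535, a stretch that holds all 7, so 1 WT call may have been taken out among them. At 266.1 kb, the site at 108883711 to 108884125 had folds of 7.74 and 9.32 in DKO replicates 1 and 2, with 22 and 24 fragments, and its peaks were 415 and 249 bp wide. Its summits lay 181 bp apart, the widest spread of the 16 sites called in at least 2 lists, whose median was 29 bp. At 414.7 kb, the site at 108735232 to 108735413 had folds of 8.71 and 5.38, with 21 and 12 fragments. The remaining 5 were called in DKO replicate 1 alone, with folds between 4.04 and 8.52, the highest of them at 446.9 kb.

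The far group, beyond 700 kb, held sites called in every library. The far enhancer known from mouse thymocytes lies toward this end of the desert, but the labels give no enhancer position and none of these sites was matched to it. The widest of the 33 sites, 476 bp at 108398249 to 108398724, lay 751.5 kb below the 3′ end and 841.5 kb below the 5′ end of the gene and was called in all 4 lists. Its fold was 9.47 and 8.68 in DKO replicates 1 and 2 and 6.75 and 5.54 in WT replicates 1 and 2, with 29 and 23 fragments in DKO and 22 and 17 in WT. Both DKO values were above both WT values, by 1 fragment between DKO replicate 2 and WT replicate 1. The peaks were 476 and 344 bp wide in DKO and 324 and 123 bp in WT. Among the sites called in all 4 lists it stood at percentile 16.3 and 38.5 in DKO and 35.0 and 26.0 in WT, so by rank the genotypes overlapped here too.

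At 772.6 kb below the 3′ end, the site at 108377276 to 108377542 had the highest fold of the far group in DKO replicates 1 and 2 and WT replicate 1. The folds were 14.3 and 10.7 in DKO and 7.65 in WT replicate 1, with 46, 27 and 28 fragments, and the summits lay within 17 bp. WT replicate 2 had no peak there and no missing number around it. The farthest site, at 108324416 to 108324741 and 825.4 kb, was called in all 4 lists, with folds of 13.8 and 4.60 in DKO and 7.51 and 5.03 in WT. Its summits had 31 and 9 fragments in DKO and 19 and 12 in WT. The DKO replicates bracketed both WT replicates, with intervals of 21.1 to 44.0 and 4.12 to 17.1 fragments in DKO replicates 1 and 2 that do not meet. Fragments are not scaled between libraries, and their medians over the sites called in all 4 lists were 45 and 27 in DKO replicates 1 and 2. By rank of fold among those sites, the percentiles were 55.9 and 1.19 in DKO and 49.8 and 15.2 in WT.

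Of the far sites, 2 were called in both DKO lists and no WT list. The site at 108356674 to 108356851, 793.2 kb below the 3′ end, had folds of 12.8 and 7.32 in DKO replicates 1 and 2, with 35 and 17 fragments and summits 11 bp apart. It was the strongest such site of the 33 by its fold in DKO replicate 1, in the top 20.4% of that list. Neither WT list has a missing number around it, so no WT call was taken out there. The site at 108409320 to 108409437, 740.6 kb below the 3′ end, had folds of 6.28 and 6.99, with 13 and 14 fragments. It lies in the same stretch with 1 missing number in WT replicate 1. Its background was the lowest of each DKO library, at 1.23 and 1.15. The other 6 far sites were called in DKO replicate 1 alone, between 710.6 and 788.0 kb, with folds of 4.30 to 6.75.

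**Figure D3:**
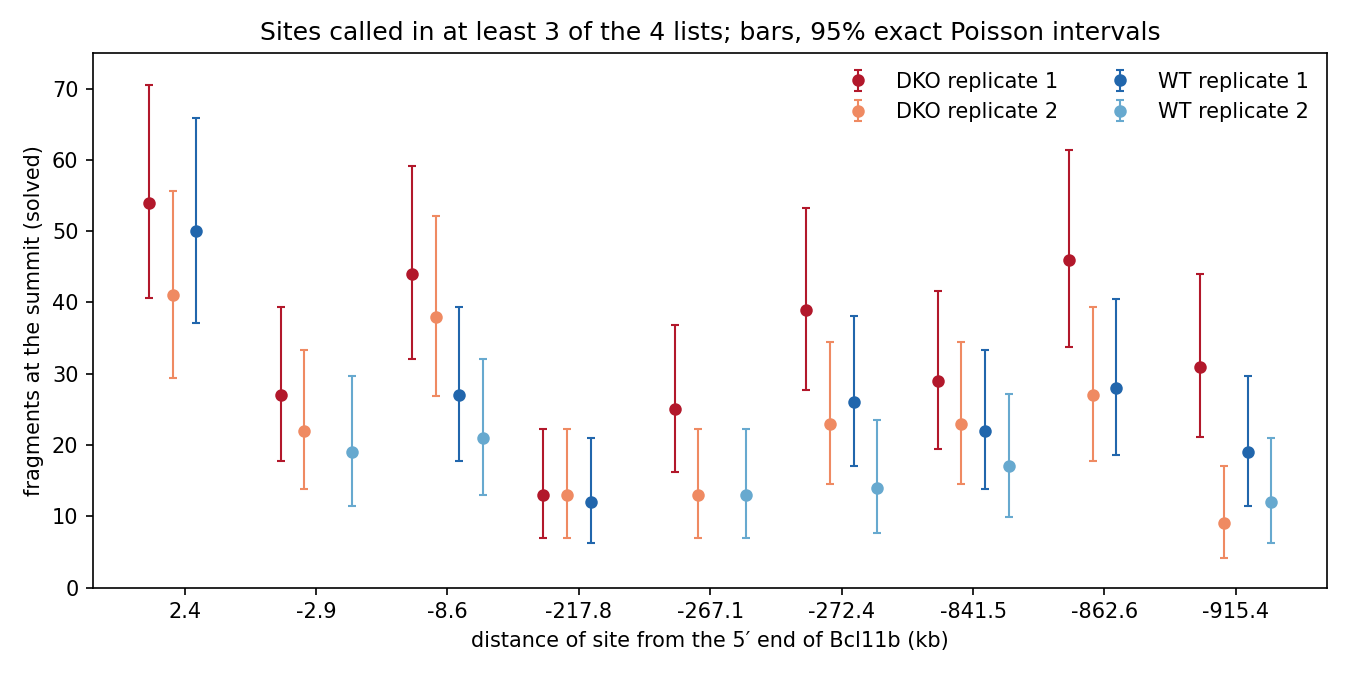
Fragments at the summit, solved from the deposited fold and p (vertical axis), for the 9 sites called in at least 3 lists, by distance in kb from the 5′ end of Bcl11b (horizontal axis). Points are libraries and bars 95% exact Poisson intervals; a missing point is a library with no peak, as WT replicate 2 at the site 2.4 kb above the 5′ end, where the other 3 have 41 to 54 fragments.

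Over the whole window, more peaks were listed in the DKO libraries. There were 32 and 16 in DKO replicates 1 and 2 and 8 and 6 in WT replicates 1 and 2, or 24.0 ± 11.3 and 7 ± 1.41 (SD, n = 2 each), a ratio of 3.43. Both DKO counts were above both WT counts, and the exact two-sided permutation p of 0.33 is the smallest that 2 against 2 libraries can give, so no difference between the genotypes can pass 0.05. Per 1000 listed peaks there were 0.920 and 0.749 in DKO and 0.457 and 0.542 in WT, or 0.835 ± 0.121 and 0.499 ± 0.0603 (SD, n = 2 each, exact permutation p = 0.33). The ratio was then 1.67. All these counts are of peaks kept after calling. Gaps in the running numbers show 0 calls removed in the window in each DKO list, against 3 and 1 in WT replicates 1 and 2. Over the genome, 4.07% and 4.08% of the numbers are missing in DKO replicates 1 and 2, against 8.03% and 7.29% in WT. With each list held to its 11073 peaks of highest −log10 p, the length of the shortest list, the counts were 6 and 7 in DKO and 6 and 6 in WT, a log2 ratio of 0.12 against 1.78 over the full lists. The difference in number therefore did not hold at equal length, where DKO replicate 1 had no more peaks than either WT list. The cut put unlike minimums on the lists. The lowest −log10 p kept was 27.3 and 13.6 in DKO replicates 1 and 2 and 10.8 and 5.4 in WT replicates 1 and 2. With the same minimum on every list instead, 5 or 10 on the deposited −log10 q, the log2 ratio was 1.93 and 1.65.

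**Figure D4:**
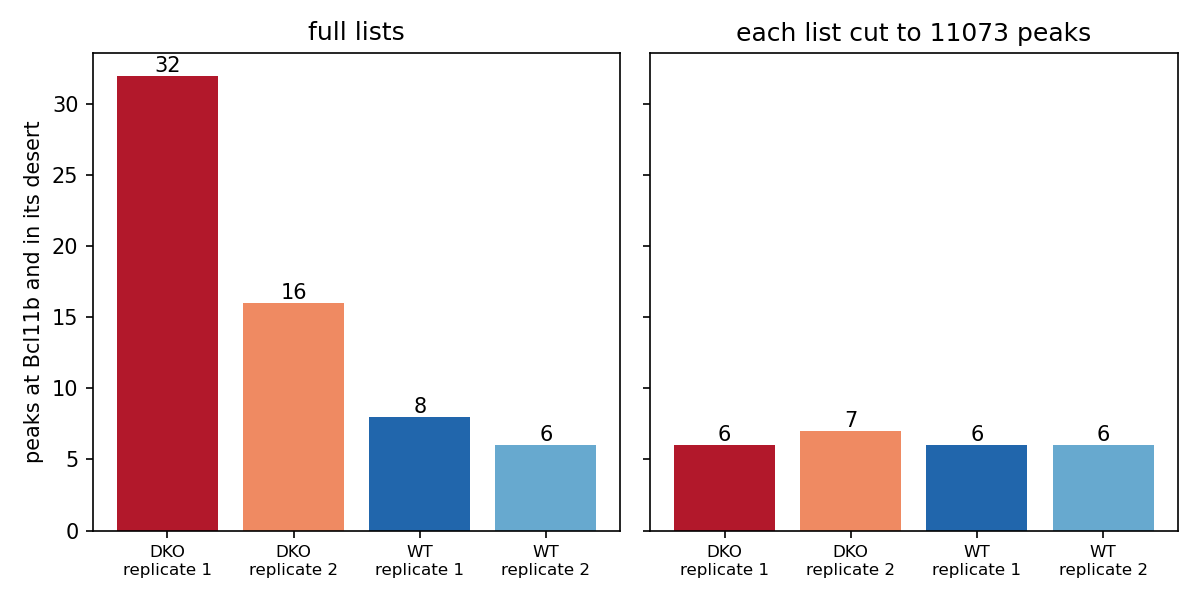
Peaks at Bcl11b and in its desert per library (bars), over the full lists on the left and with each list held to 11073 peaks on the right. The full lists gave 32 and 16 peaks in DKO and 8 and 6 in WT, and the equal lists 6 and 7 in DKO and 6 and 6 in WT.

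By median fold, sites in DKO replicate 1 alone were weaker than the rest of that list. Sites in both DKO lists and no WT list were weaker than those in all 4 lists, though single sites went the other way. The classes are formed by passing the call thresholds, so fold and class are not independent. Of the 33 sites, 16 were in DKO replicate 1 alone, 48.5%, against 31.6% of all sites of the genome. Their folds ran from 4.04 to 8.52 with a median of 5.57, and the median of the other 16 sites of that list was 9.05. Those other 16 include the 7 described next, which have no WT call either. Another 7 sites (21.2%) were called in both DKO lists and no WT list, against 14.3% over the genome. Median folds of these 7 were 7.74 and 5.95 in DKO replicates 1 and 2, against 8.16 and 6.06 for such sites of the genome, and 12.2 and 8.52 for the 4 sites of the window called in all 4 lists. The site at 108356674 to 108356851, with 12.8 in DKO replicate 1, and that at 108883711 to 108884125, with 9.32 in DKO replicate 2, lay above the median of those 4. A count of 7 in 33 and one of 5593 in 38986 were not tested against each other, since sites are not replicates. At equal list length by −log10 p, with its higher minimums in the DKO lists, 0 of the 33 sites were called in both DKO lists and no WT list. Those still called in all 4 lists at that length were 2, the site 8.6 kb below the 5′ end and the site 182.4 kb below the 3′ end.

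Sites of the WT cells were found in at least 1 DKO list about as often as over the genome. At least 1 WT list called 10 of the 33 sites (30.3%, against 49.7% over the genome), and 9 of these 10 (90.0%) were in both DKO lists, against 69.5% of all sites with a WT call. The same 9 were those in at least 1 DKO list, where the share over the genome was 87.1%. The remaining site was the 1 in WT replicate 1 alone, 3.03% of the sites against 4.28% over the genome. Sites called in both WT lists and no DKO list numbered 0 of 33, against 0.631% over the genome. Sites called in all 4 lists made up 4 of 33 (12.1%), against 20.7%. A further 5 (15.2%, against 13.9%) were called in both DKO lists and 1 WT list, with 3 of them in WT replicate 1 and 2 in WT replicate 2. In total 16 sites were in both DKO lists, 48.5%, near the 48.9% of the genome. All 16 sites of DKO replicate 2 and all 6 of WT replicate 2 were in DKO replicate 1, against 90.7% and 91.6% over the genome. WT replicate 1 shared 4 of its 8 sites (50%) with WT replicate 2, against 51.5%. Other overlaps differed more from the whole lists. Of the DKO replicate 1 sites, 21.9% and 18.8% were in WT replicates 1 and 2, against 44% and 29.1% over the genome. For DKO replicate 2 these shares were 43.8% and 37.5%, against 60.9% and 43.1%. WT replicate 2 shared 66.7% of its sites with WT replicate 1, against 81.3%. In the other direction, 87.5% and 100% of the sites of WT replicates 1 and 2 were in DKO replicate 2, against 73.8% and 82.5%.

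Ranked by fold among the 8068 sites called in all 4 lists, the 4 shared sites of the window averaged percentile 38.1 and 37.4 in DKO replicates 1 and 2 and 48.2 and 27.6 in WT replicates 1 and 2. The means were 37.7 ± 0.488 in DKO and 37.9 ± 14.6 in WT (SD, n = 2 each), and the exact two-sided permutation p was 1. Of these 4 sites, 3 ranked lower in WT replicate 2 than in WT replicate 1, the exception being the site 8.6 kb below the 5′ end. No difference in rank between the genotypes was detectable, and the WT libraries spanned the DKO libraries.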

How the data were processed

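The deposited data are 1 peak list for each of the 4 libraries, not a list from pooled libraries. Per the submitters' processing notes, the tools were MACS2 2.1.1, Bowtie2 2.2.5 and FastQC and the build was mm9. Neither their settings nor any control library or treatment of duplicates was given in the sources used here. For each peak the authors deposited a fold enrichment (a ratio of summit pileup to local background), −log10 p, −log10 q and a score of 10 times the −log10 q. Starts and summits count from 0 in the deposited lists and were converted to count from 1. Fold equals pileup plus 1 over background plus 1, and p is the Poisson chance of exceeding that pileup. The pileup that gives both values was solved for peaks with a −log10 p under 250 and was whole within 0.02 for 100% of them in each library. On 1625 simulated peaks 100% of pileups were recovered, and the classes of 1000 planted sites were recovered in 100%.

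Peaks overlapping by at least 1 bp were merged over the whole genome and sites with a midpoint in the window were kept. Genotype and replicate number came from the sample titles. Genotypes were compared with exact permutation tests of the 4 libraries. Sites described in full were, by rule, those called in all 4 lists, those called in both lists of a genotype and none of the other, and the strongest far site; the others are given more briefly. The window, classes and motifs were chosen with earlier results of these data known. Missing running numbers show that 1476 and 908 peaks of the DKO lists and 1530 and 871 of the WT lists were removed after calling. As shares of the numbers these were 4.07% and 4.08% in DKO and 8.03% and 7.29% in WT. Marker genes of the cell type and the deletion of Tcf7 and Lef1 were not checked, since no mm9 annotation was used here. Motif searches and gene order used RefSeq tables of GRCm38.p6. Alternatives were lists of equal length, minimums of 5 and 10 on −log10 q, other rules for overlap and membership, other measures for ranking, and leaving out each library. Python 3.11.15, numpy 2.4.6, scipy 1.17.1 and matplotlib 3.10.9 were used.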

Additional observations from a re-analysis of the deposited data

How the results depend on the processing

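The mean DKO excess of peaks in the window stayed positive under each alternative, between 1.19 and 2.19 on the log2 scale with 1 library left out. It was 1.93 and 1.65 at −log10 q minimums of 5 and 10, but only 0.12 and 0.22 at equal list lengths by −log10 p and by fold. At equal length it was not seen in each library, since DKO replicate 1 and both WT lists had 6 peaks by either measure. As a share of the list the excess was 0.74, and 0.59 to 0.88 with 1 library left out. This share was 0.80 and 0.36 at −log10 q minimums of 5 and 10, and 0.12 and 0.22 at equal lengths. Sites in both DKO lists and no WT list (7) fell to 2 at a −log10 q of at least 10, and to 0 and 1 at equal length by −log10 p and by fold. Leaving out a library, which can only add sites to this class, gave 8 to 23, with 23 without DKO replicate 2. Counting only those with no missing number around them in either WT list, a setting chosen after seeing the data, left 1. In the window 3 numbers are missing in WT replicate 1, 1 in WT replicate 2 and 0 in each DKO list. Not every site set aside can thus have lost a WT call. Sites in both WT lists and no DKO list (0) numbered 0 to 1 with a library left out, with 1 without WT replicate 2. Sites in all lists (4) were 1 at a −log10 q of at least 10, 2 at equal length by either measure, 1 when a peak had to cover at least 50% of the merged site, and 4 to 7 with a library left out, with 7 without WT replicate 2. The mean rank difference, DKO minus WT, was -0.217 percentile points. It reversed to 3.76 and 24.4 at −log10 q minimums of 5 and 10, and ranged from -6.20 to 2.95 with a library left out, reversing to 1.48 without DKO replicate 2 and to 2.95 without WT replicate 1. Fewer sites remain at these minimums. The cause of the other changes was not tested.

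With the replicate number as a block the log2 difference was 1.71 in peak number and 0.74 in share, with an exact p of 0.50, the smallest that 2 pairs can give; no call changed. Over the 8068 sites in all lists, the replicate 1 minus 2 differences of the genotypes had a Pearson correlation of -0.01 across sites, so the numbers are not taken to pair the libraries. At 8 to 54 fragments per summit, the depth limits each value.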
